A study of Canis lupus familiaris with 10 samples.

Results

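Interferon-stimulated genes are the genes that cells switch on when they sense interferon, and 48 of them, taken by their gene symbols, were followed in canine retina. A gene was found on the array through its probe sets, the groups of short probes that each measure 1 transcript or several similar ones. A probe set was taken only where the platform annotation gave it exactly 1 gene symbol. In this way 40 of the 48 genes had at least 1 probe set (78 probe sets in all). RIGI, OASL, IFIT1, IFIT3, BST2, IFITM3, SAMD9 and LGALS3BP matched none by symbol and were not analysed here. Of the 40 genes, 29 (47 probe sets) passed the minimum for expressed probe sets, a log2 intensity above 7 in at least 2 of the 10 dogs, out of 7900 genes (18416 probe sets) that did so. A gene with several such probe sets was represented by the one with the highest mean level.

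The retinas came from 5 dogs with glaucoma and 5 healthy dogs, with 1 array and 1 eye a dog. The dogs with glaucoma were 2 Shiba Inus of 5 and 14 years, 2 Basset Hounds of 5 and 7 years and 1 Dalmatian of 9 years, by the sample labels. They were clinic patients with advanced primary disease of the closed-angle kind whose eyes had been removed, and all had received pressure-lowering eye drops. The healthy dogs were 5 Beagles of 4 years without eye disease, which had been euthanized for other reasons. The methods of the study give other ages for the older Shiba Inu and the Dalmatian. No breed occurred in both groups and every dog with glaucoma was older than every healthy dog. Disease, medication, breed, age and the way the eye was obtained therefore cannot be told apart in any difference below. Values are log2 of the deposited array intensity. The values of the glaucomatous retinas are given in the order 5-year-old Shiba Inu, 14-year-old Shiba Inu, 5-year-old Basset Hound, 7-year-old Basset Hound and Dalmatian, and differences are glaucoma minus healthy on the log2 scale with their standard error (SE).

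Interferons are secreted proteins that warn tissue of viral nucleic acid or damage. Type I interferons (alpha and beta) bind a receptor made of IFNAR1 and IFNAR2, whose JAK kinases activate a complex that holds STAT2 and IRF9, and that complex switches on the genes that carry its DNA element. Type II interferon (gamma) acts through a receptor of IFNGR1 and IFNGR2. The products of the induced genes sense viral RNA, block translation and viral assembly, attach the ubiquitin-like protein ISG15 to other proteins, or feed back on the signal. In nervous tissue microglia, astrocytes and neurons can all express such genes, and a low tonic level is present without infection.

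Transcript levels of 24 of the 29 measured genes rose in the glaucomatous retina, 0 fell and 5 did not pass the test (limma, Benjamini-Hochberg adjusted p under 0.05 over all 18416 probe sets). Among all 7900 genes 8.04% rose and 8.65% fell. The 24 were OAS1, OAS2, IFIH1, MX1, MX2, SAMD9L, XAF1, RTP4, ISG15, UBA7, UBE2L6, HERC5, HERC6, USP18, PARP9, DTX3L, PARP14, IRF7, IRF9, IFI6, IFI35, IFI44, IFI44L and EPSTI1. In 14 of them the rise was at least 2-fold, which 3.27% of all genes reached. Of the 29 genes, 7 had no healthy dog above the minimum and entered the test only through glaucomatous retinas, as given below. In 23 of the 29 genes every glaucomatous retina lay above every healthy retina, as in 7.29% of all genes. The median difference of the 29 genes was 0.998, beside -0.01 for all genes. STAT2, IRF1, IRF2, IFIT5 and TRIM21 were the 5 that did not pass.

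**Figure D1:**
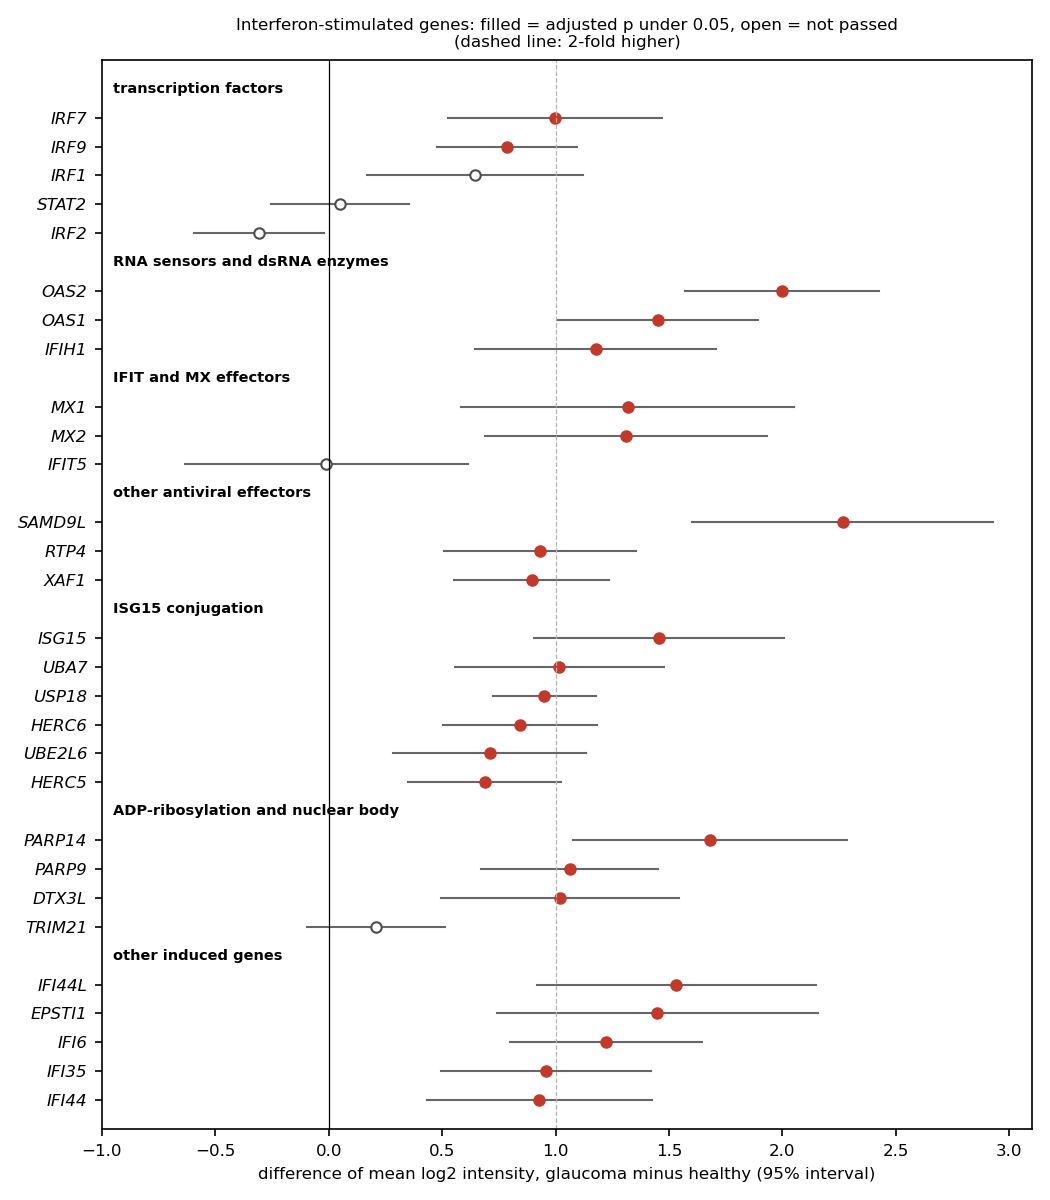
Difference of the mean log2 intensity, glaucoma minus healthy, for the 29 measured interferon-stimulated genes on the x axis, grouped by role down the page, with the 95% interval of the limma fit (n = 5 dogs each). Filled points mark the 24 genes that rose, which run between 0.69 for HERC5 and 2.27 for SAMD9L, and open points the 5 that did not pass.

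Markers of microglia and macrophages moved with the disease as well. Of 13 measured markers 10 rose, beside 8.04% of all genes. Among them were the growth factor receptor CSF1R, by 3.26 ± 0.34 (SE, adjusted p = 0.00017), and the complement gene C1QC, by 3.44 ± 0.28 (SE, adjusted p = 7.1e-05). CSF1R, CD68 and CD163 lay below the minimum in every Beagle. They entered the test only through glaucomatous retinas, CD163 through 3 of them. The mean log2 level of the 13 lay between 8.62 and 9.52 in glaucomatous retinas and between 7.04 and 7.42 in healthy retinas. P2RY12 and TMEM119, which mark resting microglia, differed by -0.37 (adjusted p = 0.52) and 0.14 (adjusted p = 0.35). Of 17 T and NK cell markers 4 were measured and 2 rose, CD2 by 0.74 and CD3E by 0.42. Neither exceeded the minimum in any Beagle, so both entered the test only through glaucomatous retinas, CD3E through 2 of them. The study's immunolabelling for CD3 protein revealed no positive cells in the glaucomatous retinas evaluated, except occasional ones in the space around vessels. The mean level of the 4 markers lay between 6.86 and 7.46 in glaucomatous and 6.61 and 6.91 in healthy retinas. Another 10 T and NK cell markers were on the array but did not reach the minimum in 2 dogs. With no minimum set 1 of them rose, the T cell receptor complex gene CD3D by 0.60 (adjusted p = 0.049). The killer cell genes among them were CD8A (5.47 to 5.81 in glaucomatous and 5.34 to 5.81 in healthy retinas), PRF1 (4.94 to 5.29 in glaucomatous and 4.84 to 5.28 in healthy retinas) and GZMB (4.70 to 7.03 in glaucomatous and 4.55 to 4.89 in healthy retinas), the last above the minimum in 1 glaucomatous retina and with a difference of 0.62 (adjusted p = 0.39). In bulk tissue more cells of a type and more RNA per cell cannot be told apart, and the part of these cells in the rise of the interferon-stimulated genes was not tested.

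The arrays had median intensities of 77.1 to 80.7. Over the tested probe sets the healthy arrays correlated with each other at r = 0.953 to 0.982 and the glaucoma arrays at r = 0.849 to 0.967, the 5-year-old Shiba Inu being the most distant with its highest r at 0.917. The mean level of 12 rod and cone genes was 8.03 to 11.2 in glaucomatous and 11.1 to 11.5 in healthy retinas. Of the 12, 2 fell and 10 did not pass, with a median difference of -1.14. The cone opsin gene OPN1SW exceeded the minimum in all 5 healthy but only 2 glaucomatous retinas. Of 11 measured ganglion cell genes 8 fell, 2 did not pass and 1, SNCG, rose by 2.52 ± 0.27 (SE, adjusted p = 0.00020). The study lists SNCG as lower in glaucoma by another probe set, so its direction depended on the probe set. The 5-year-old Shiba Inu and healthy dog 4 stood out by pigment epithelium genes, with medians of 3.74 in that Shiba Inu and 2.63 in that Beagle above the healthy mean. Without these 2 dogs 22 interferon-stimulated genes still rose, beside 7.29% of all genes, with a median difference of 0.86. UBE2L6 did not pass (adjusted p = 0.071) and MX2 was not among the genes tested there.

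The transcription factors of the interferon response had the smallest share of rises among the role groups, 2 of 5 measured, with a median difference of 0.64. IRF9, the DNA-binding subunit of the complex that type I interferon activates, gave 9.73, 9.13, 9.56, 9.63 and 9.79 in glaucomatous retinas, against 9.08, 8.75, 8.69, 8.73 and 8.68 in healthy retinas. Each glaucomatous retina was above each healthy one, although the 14-year-old Shiba Inu exceeded the highest Beagle by little. The difference was 0.78 ± 0.14 (SE, adjusted p = 0.0037), and a second probe set rose by 0.50 (adjusted p = 0.011).

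IRF7, which amplifies the production of type I interferon and is itself induced by it, measured 7.35, 7.13, 7.26, 7.62 and 8.37 in the dogs with glaucoma and 6.65, 6.68, 6.57, 6.62 and 6.23 in the Beagles. The groups did not overlap, the Dalmatian was the highest, and no healthy retina reached the minimum of 7. The difference was 1.0 ± 0.21 (SE, adjusted p = 0.0096).

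IRF1, a factor induced mainly by interferon gamma, stood at 7.72, 7.47, 6.93, 7.45 and 8.28 in glaucomatous retinas, against 7.18, 6.77, 7.13, 6.74 and 6.82 in healthy retinas. The Dalmatian was the highest and the 5-year-old Basset Hound lay within the healthy range, so that the groups overlapped. With 0.64 ± 0.22 (SE, adjusted p = 0.065), the gene did not pass. It rose without the 5-year-old Basset Hound (difference 0.80, adjusted p = 0.015), without both Basset Hounds (0.90, adjusted p = 0.015) and with array weights (0.63, adjusted p = 0.019). IRF2, which competes with IRF1 for the same DNA element and in most settings represses it, was measured at 9.57, 8.96, 9.57, 9.19 and 9.44 in the dogs with glaucoma and 9.63, 9.73, 9.67, 9.68 and 9.54 in the Beagles. Both 5-year-old dogs lay just above the lowest Beagle and the 3 older dogs below every Beagle, and the difference of -0.31 ± 0.13 (SE, adjusted p = 0.13) did not pass either.

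STAT2, the transactivating subunit beside IRF9, depended on the probe set. Its representative probe set ranged from 8.58 to 9.10 in glaucomatous and from 8.55 to 9.03 in healthy retinas, a difference of 0.05 ± 0.14 (SE, adjusted p = 0.83). A second probe set ranged from 7.71 to 8.30 in glaucomatous and from 7.07 to 7.50 in healthy retinas and rose by 0.62 (adjusted p = 0.0085), as did another by 0.84 (adjusted p = 0.0043). A further one differed by 0.42 with no overlap between the groups (adjusted p = 0.087). The last stayed below the minimum. IRF8, a factor of myeloid cells, was below the minimum in both of its probe sets, the one of higher level at 5.44 to 5.84 in glaucomatous and 5.36 to 5.69 in healthy retinas.

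All 3 measured sensors of double-stranded RNA and their enzymes rose, by 1.18 to 2.0. The OAS enzymes make short chains of adenylate that switch on the nuclease RNase L. OAS2 levels were 7.94, 7.47, 7.64, 8.07 and 8.52 in glaucomatous retinas, against 5.96, 6.09, 6.18, 5.82 and 5.58 in healthy retinas. No healthy retina reached the minimum and every glaucomatous one did, the groups lying more than 1 log2 unit apart. The difference was 2.0 ± 0.19 (SE, adjusted p = 0.00012), a 4.00-fold higher mean.

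OAS1, the smallest of the family, had 10.50, 9.63, 10.08, 9.81 and 10.67 in the dogs with glaucoma and 8.93, 8.88, 8.60, 8.54 and 8.48 in the Beagles. The 5-year-old Shiba Inu and the Dalmatian were highest and again no values overlapped. The difference was 1.45 ± 0.20 (SE, adjusted p = 0.00081), and all 4 of its tested probe sets rose, by 1.20 to 1.54. OAS3, which lies between OAS1 and OAS2 in the dog annotation with no coding gene in between, was below the minimum in every dog, at 5.85 to 6.28 in glaucomatous and 6.01 to 6.35 in healthy retinas. Whether its probe set detects OAS3 in dog retina was not tested.

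IFIH1 encodes MDA5, a cytoplasmic sensor of long double-stranded RNA. Its levels were 8.31, 7.03, 7.99, 7.65 and 8.53 in glaucomatous retinas, against 6.89, 6.69, 6.63, 6.79 and 6.64 in healthy retinas, so that the 14-year-old Shiba Inu stood only just above the Beagles and the 4 other dogs well above. The difference was 1.18 ± 0.24 (SE, adjusted p = 0.0077). DHX58, which encodes the related regulator LGP2, exceeded the minimum in 1 dog only and was not tested, with 6.00 to 7.36 in glaucomatous and 5.28 to 5.68 in healthy retinas. When no minimum was set it differed by 1.23 (adjusted p = 0.0048) and rose. EIF2AK2, which encodes the translation-blocking kinase PKR, and ADAR, which edits double-stranded RNA, also lay below the minimum, with differences of 0.14 and 0.19.

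**Figure D2:**
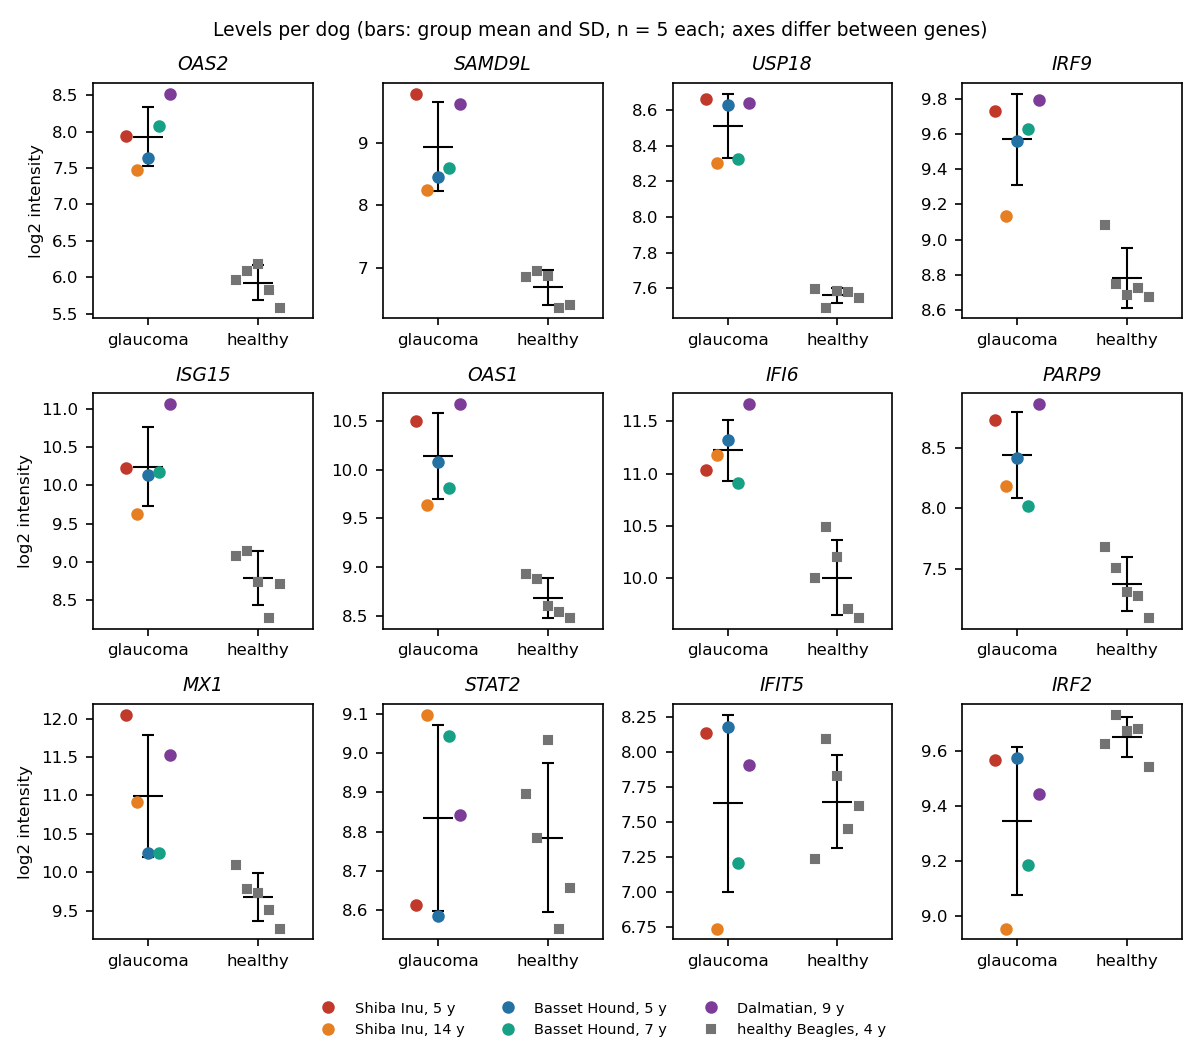
Log2 intensity in each dog for 12 interferon-stimulated genes, glaucoma on the left and healthy on the right of each panel, with bars for the mean and SD of 5 dogs. OAS2 and SAMD9L show the widest gaps between groups, MX1 the widest scatter among glaucomatous retinas, and STAT2, IFIT5 and IRF2 overlap.

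Of the IFIT and MX effectors, 3 could be measured and 2 rose. The MX proteins are dynamin-like GTPases that trap viral nucleocapsids. MX1 was at 12.05, 10.92, 10.25, 10.25 and 11.52 in the dogs with glaucoma and 10.10, 9.78, 9.74, 9.51 and 9.27 in the Beagles. All dogs with glaucoma exceeded the Beagles, but the 2 Basset Hounds by only a little and the 5-year-old Shiba Inu by the most. The difference was 1.32 ± 0.33 (SE, adjusted p = 0.021), with an SD of 0.79 among glaucomatous retinas and 0.31 among healthy retinas. The call was lost when the Dalmatian (adjusted p = 0.055) or healthy dog 5 (adjusted p = 0.056) was left out.

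MX2, its neighbour on the chromosome, was at 7.44, 6.00, 6.51, 6.38 and 7.43 in glaucomatous retinas, against 5.45, 5.37, 5.91, 5.16 and 5.30 in healthy retinas. The order of the dogs with glaucoma differed from that for MX1, the 14-year-old Shiba Inu being lowest. The difference was 1.31 ± 0.28 (SE, adjusted p = 0.0097). As only the 5-year-old Shiba Inu and the Dalmatian exceeded the minimum, MX2 could not be tested without either of them.

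IFIT5, which binds viral RNA ends, had 8.14, 6.74, 8.18, 7.21 and 7.91 in the dogs with glaucoma and 7.24, 8.09, 7.83, 7.45 and 7.61 in the Beagles. The Beagles lay within the range of the glaucomatous retinas, and the difference was -0.01 ± 0.28 (SE, adjusted p = 0.99), with a 95% interval of -0.63 to 0.61. IFIT2 stayed below the minimum (4.84 to 5.22 in glaucomatous and 4.62 to 5.00 in healthy retinas).

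Among other antiviral effectors SAMD9L, XAF1 and RTP4 were measured and all rose. SAMD9L, a cytoplasmic protein that restricts viral translation, differed the most of the 29 genes. Its levels were 9.80, 8.25, 8.46, 8.60 and 9.63 in glaucomatous retinas, against 6.85, 6.94, 6.86, 6.35 and 6.40 in healthy retinas. Every healthy retina lay below the minimum and every glaucomatous one more than 1 log2 unit above it, the 5-year-old Shiba Inu and the Dalmatian apart from the others. The difference was 2.27 ± 0.30 (SE, adjusted p = 0.00065), 4.81-fold.

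XAF1, a pro-apoptotic binding partner of XIAP, was measured at 9.05, 8.53, 8.57, 8.56 and 8.68 in the dogs with glaucoma and 7.89, 7.94, 8.08, 7.63 and 7.37 in the Beagles. Here 4 of the 5 glaucomatous retinas lay close together and none overlapped the Beagles. The difference was 0.89 ± 0.16 (SE, adjusted p = 0.0032). RTP4, a chaperone of receptors that also restricts viruses, gave 8.75, 7.62, 7.89, 7.73 and 7.87 in glaucomatous retinas, against 6.95, 7.25, 7.04, 7.06 and 6.90 in healthy retinas, with the 5-year-old Shiba Inu far above the other dogs. It rose by 0.93 ± 0.19 (SE, adjusted p = 0.0080), and without that dog by 0.74 (adjusted p = 0.0011).

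RSAD2, whose product viperin makes a chain-terminating nucleotide, and CMPK2, the mitochondrial kinase encoded beside it, were both below the minimum. RSAD2 ranged from 5.19 to 5.74 in glaucomatous and 5.17 to 5.32 in healthy retinas. The 4 probe sets of CMPK2 differed by 0.22 to 0.42, 1 of them without overlap. ISG20, an RNA exonuclease, differed by 0.28 below the minimum.

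All 6 measured genes of the ISG15 pathway rose, by 0.69 to 1.46, and in none did the groups overlap. ISG15 is coupled to target proteins by the activating enzyme UBA7, the conjugating enzyme UBE2L6 and ligases of the HERC family, and USP18 removes it again. ISG15 itself stood at 10.23, 9.63, 10.13, 10.17 and 11.06 in the dogs with glaucoma and 9.08, 9.14, 8.74, 8.27 and 8.71 in the Beagles. The Dalmatian was the highest and the 14-year-old Shiba Inu the lowest of the dogs with glaucoma. The difference was 1.46 ± 0.25 (SE, adjusted p = 0.0030), and the other probe set of the gene rose by 1.48 (adjusted p = 0.0024).

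USP18, which also blocks the type I receptor and so limits the response, had 8.66, 8.30, 8.63, 8.32 and 8.64 in glaucomatous retinas, against 7.60, 7.49, 7.58, 7.58 and 7.55 in healthy retinas. Its SD was 0.18 among glaucomatous and 0.04 among healthy retinas, smaller in both groups than for any other of the 24 genes that rose. The difference was 0.95 ± 0.10 (SE, adjusted p = 0.00020). HERC6 was measured at 9.59, 9.91, 10.04, 10.34 and 9.79 in the dogs with glaucoma and 9.34, 9.12, 9.25, 8.82 and 8.92 in the Beagles, and its order among the dogs with glaucoma was another one, with the 7-year-old Basset Hound highest and the 5-year-old Shiba Inu lowest. It rose by 0.84 ± 0.15 (SE, adjusted p = 0.0043).

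The 3 other enzymes rose as well. UBA7 differed by 1.02 ± 0.21 (SE, adjusted p = 0.0077), HERC5, the main ligase in human cells and the neighbour of HERC6, by 0.69 ± 0.15 (SE, adjusted p = 0.012), and UBE2L6 by 0.71 ± 0.19 (SE, adjusted p = 0.029). For HERC5 the lowest glaucomatous retina (8.32) and the highest Beagle (8.31) all but met. The call of UBE2L6 was lost without the 7-year-old Basset Hound or without any 1 of the 5 Beagles (adjusted p = 0.0501 to 0.069). TRIM25, a ligase that activates RIG-I, stayed below the minimum, with a difference of 0.28.

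Of the genes for ADP-ribosylation and nuclear bodies, 3 of 4 rose. PARP9 and DTX3L form a complex that modifies histones in interferon signalling, and PARP14 is a mono-ADP-ribosyltransferase. All 3 lie together in the dog annotation, with 1 coding gene between DTX3L and PARP14. PARP14 had 8.24, 6.59, 7.49, 7.23 and 8.11 in glaucomatous retinas, against 6.05, 5.66, 5.70, 5.87 and 5.98 in healthy retinas. No Beagle and 4 of the 5 glaucomatous retinas exceeded 7. The difference was 1.68 ± 0.27 (SE, adjusted p = 0.0023).

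PARP9 was measured at 8.73, 8.18, 8.41, 8.02 and 8.86 in the dogs with glaucoma and 7.68, 7.51, 7.32, 7.28 and 7.10 in the Beagles, with the 7-year-old Basset Hound the lowest dog with glaucoma and no overlap. It rose by 1.06 ± 0.18 (SE, adjusted p = 0.0025). DTX3L stood at 10.60, 9.46, 9.68, 9.54 and 10.08 in glaucomatous retinas, against 9.32, 9.00, 8.94, 8.64 and 8.37 in healthy retinas, where the lowest glaucomatous retina was close to healthy dog 1. Its difference was 1.02 ± 0.24 (SE, adjusted p = 0.015), while a second, dimmer probe set overlapped between groups and differed by 0.50 (adjusted p = 0.051).

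TRIM21, a cytoplasmic antibody receptor and ubiquitin ligase, had 7.58, 7.48, 7.08, 7.33 and 7.43 in the dogs with glaucoma and 7.33, 7.07, 7.51, 7.02 and 6.94 in the Beagles. The groups overlapped through most of their range and the difference of 0.21 ± 0.14 (SE, adjusted p = 0.33) did not pass. SP100, a nuclear body protein, was below the minimum in all 4 of its probe sets, with differences of -0.03 to 0.43.

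The remaining induced genes, IFI6, IFI35, IFI44, IFI44L and EPSTI1, all rose. IFI6, a membrane protein of the endoplasmic reticulum and mitochondria, was measured at 11.03, 11.18, 11.32, 10.91 and 11.67 in glaucomatous retinas, against 10, 10.49, 10.20, 9.70 and 9.61 in healthy retinas. The lowest glaucomatous retina, from the 7-year-old Basset Hound, lay above the highest Beagle. The difference was 1.22 ± 0.19 (SE, adjusted p = 0.0018), and the second probe set rose by 1.10 (adjusted p = 0.0032).

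IFI44L, a feedback regulator of antiviral responses, had 10.46, 9.38, 9.91, 9.75 and 10.37 in the dogs with glaucoma and 9.19, 8.71, 8.41, 8.14 and 7.75 in the Beagles. Among the Beagles the spread was wide, yet the highest stayed below the 14-year-old Shiba Inu. The difference was 1.53 ± 0.28 (SE, adjusted p = 0.0042), and all 3 probe sets rose, by 1.53 to 1.55. Its neighbour and relative IFI44 rose by 0.93 ± 0.23 (SE, adjusted p = 0.017), with the 14-year-old Shiba Inu (8.43) below healthy dog 2 (8.62). It was the single gene among the 24 with overlapping groups, and in its other tested probe set the difference was 0.95 (adjusted p = 0.0503).

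IFI35, a partner of the protein NMI, stood at 9.79, 8.66, 9.05, 9.23 and 9.71 in glaucomatous retinas, against 8.54, 8.33, 8.34, 8.44 and 7.99 in healthy retinas. Here too the 14-year-old Shiba Inu was closest to the Beagles. It rose by 0.96 ± 0.21 (SE, adjusted p = 0.011), and all 4 probe sets rose, by 0.62 to 0.99. EPSTI1, an induced gene of epithelial and immune cells, had a range of 6.52 to 8.38 in glaucomatous and 5.66 to 6.50 in healthy retinas, a difference of 1.45 ± 0.32 (SE, adjusted p = 0.011). Both of its other probe sets were below the minimum, with differences of 0.09 and 0.37.

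**Figure D3:**
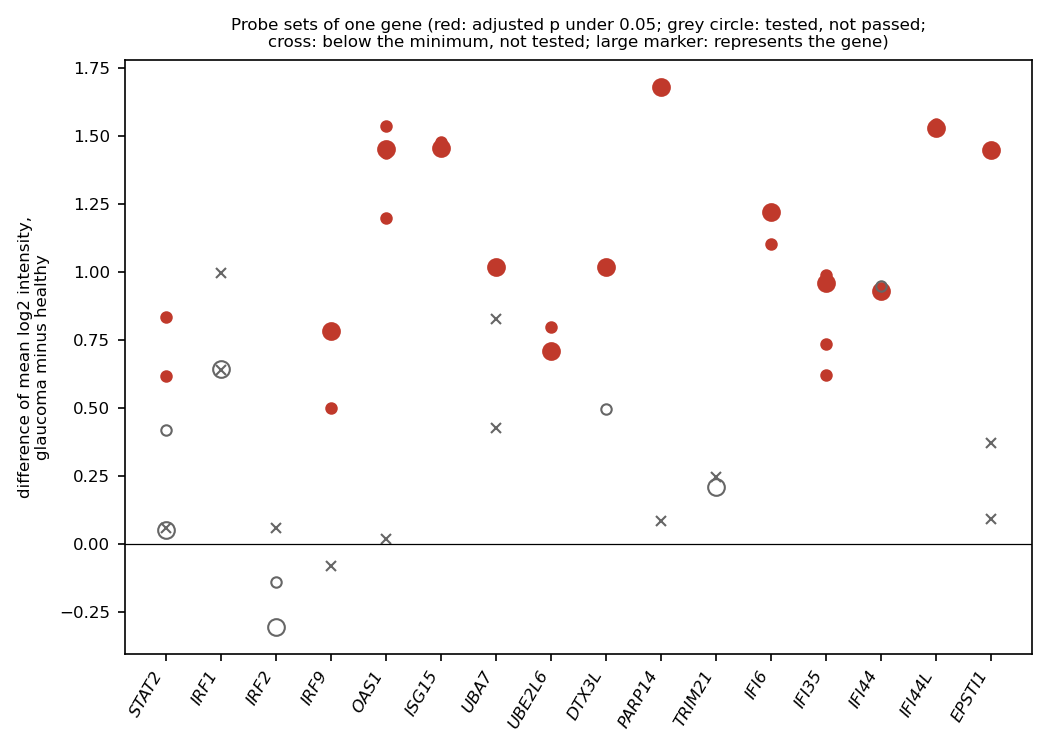
Difference of the mean log2 intensity, glaucoma minus healthy, on the y axis for every probe set of the 16 measured genes that had more than 1. Of the 11 genes with several tested probe sets all of them rose in 7, whereas for STAT2, DTX3L and IFI44 some did and some did not.

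Taking each probe set by itself, 38 of the 47 tested rose and 0 fell, beside 7.58% that rose among all 18416 probe sets. Several tested probe sets were at hand for 11 genes. All of them rose in 7 genes (IRF9, OAS1, ISG15, UBE2L6, IFI6, IFI35 and IFI44L), some rose in 3 (STAT2, DTX3L and IFI44) and none in IRF2. Probe sets of 1 gene read the same RNA and are not replicates. For 7 genes (IFIH1, OAS2, MX1, MX2, ISG15, PARP9 and TRIM21) the name of the representative probe set ended in _s_at, a type whose probes can match several transcripts. That of OAS1 ended in _a_at and was not counted among them. Whether the probe sets of the OAS, MX and IFI44 families tell their members apart was not tested, as no probe sequence was compared.

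IRF7, IFIH1, OAS2, MX2, SAMD9L, PARP14 and EPSTI1 passed the minimum with no healthy dog above it. These 7 genes could enter the test only by being high in glaucomatous retinas. With no minimum for any probe set, 25 of the 40 genes rose, 0 fell and 15 did not pass, beside 4.53% that rose among 15115 genes. The rise was at least 2-fold in 15 genes. With a log2 above 7 required in at least 5 dogs, 21 of 26 measured genes rose, 11 of them at least 2-fold, beside 7.45% of all genes that rose. EPSTI1, MX2 and PARP14 were then not tested. DHX58 was the gene added when no minimum was set, and the median difference of the 40 was 0.91, beside 0.03 over all genes.

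**Figure D4:**
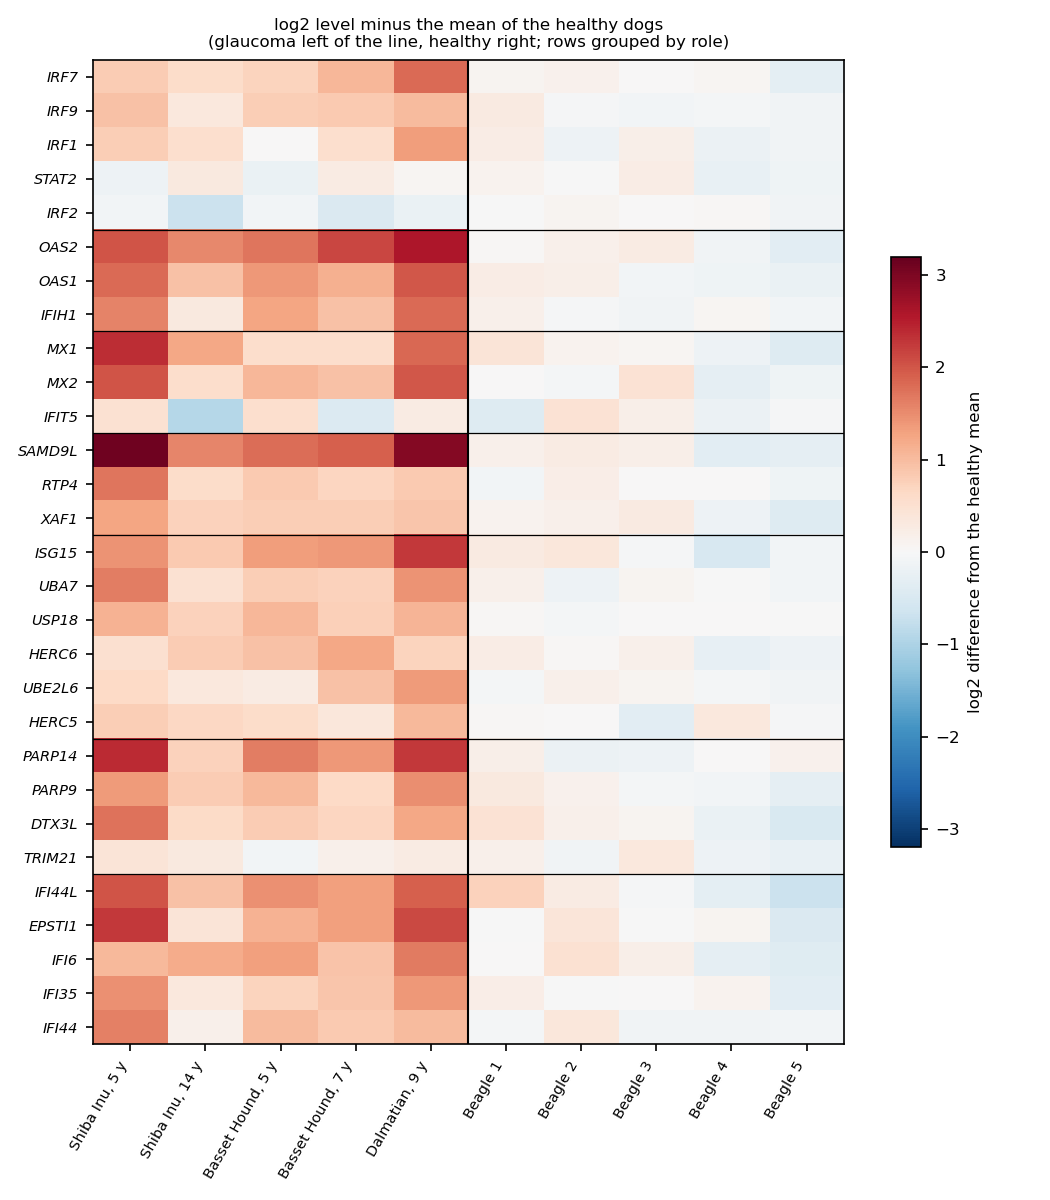
Log2 level of each of the 29 genes (rows, grouped by role) in each dog (columns, glaucoma left of the line and healthy right of it) minus the mean of the healthy dogs, in colour. The columns of the 5-year-old Shiba Inu and the Dalmatian are the deepest red, with median values of 1.44 and 1.39, and that of the 14-year-old Shiba Inu is the palest of the glaucomatous retinas at 0.59.

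Dogs with glaucoma differed among themselves in the height of the response. The median of the 29 genes above the healthy mean was 1.44 in the 5-year-old Shiba Inu, 0.59 in the 14-year-old one, 0.85 and 0.84 in the Basset Hounds and 1.39 in the Dalmatian, against -0.14 to 0.16 in the Beagles. Each dog with glaucoma exceeded all Beagles in 25 to 27 of the 29 genes, or 86.2% to 93.1%, while over all 7900 genes this share was 24.4% to 33.2%. The 2 Shiba Inus had the highest and the lowest median, while the 2 Basset Hounds were close to each other.

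Among the 24 genes that rose, the 14-year-old Shiba Inu was the lowest dog with glaucoma in 18 (75%), as it was in 53.2% of all 635 genes that rose. The 5-year-old Shiba Inu was highest in 13 and the Dalmatian in 10, which is 54.2% and 41.7%, beside 52.3% and 31.3% of all genes that rose. HERC6 was the single gene whose highest value came from another dog. The median SD of the 29 genes was 0.45 among glaucomatous and 0.22 among healthy retinas, and over all genes 0.26 among glaucomatous and 0.18 among healthy retinas.

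**Figure D5:**
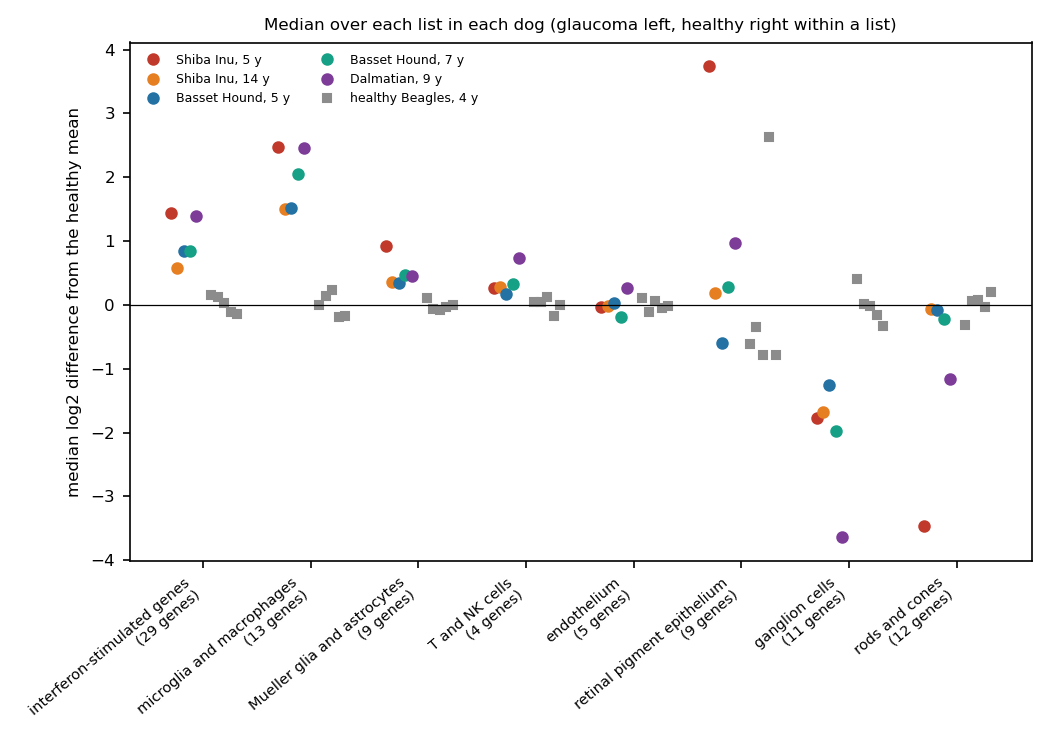
Median log2 difference from the healthy mean over the interferon-stimulated genes and over 7 lists of cell type markers (x axis), 1 point a dog, glaucoma left and healthy right within a list. Both the interferon-stimulated genes and the microglia and macrophage markers are highest in the 5-year-old Shiba Inu (1.44 and 2.47) and the Dalmatian (1.39 and 2.45).

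Microglia and macrophage markers were likewise highest in the 5-year-old Shiba Inu and the Dalmatian, with medians above the healthy mean of 2.47, 1.5, 1.51, 2.05 and 2.45 in the dogs with glaucoma and -0.19 to 0.23 in the Beagles. T and NK cell markers were highest in the Dalmatian at 0.74 and lay at 0.18 to 0.33 in the other dogs with glaucoma. GFAP, the classical sign of reactive glia, rose by 2.46 (adjusted p = 0.0023). No Beagle exceeded the minimum for GFAP, which entered the test only through 4 glaucomatous retinas. The astrocyte and Mueller glia genes as a list lay at 0.92 in the younger Shiba Inu, with 0.35 to 0.47 in the other 4 dogs. Pigment epithelium genes stood at 3.74 in the same dog and at -0.60 to 0.97 in the other 4, and rod and cone genes at -3.47 and at -1.15 to -0.07. The groups are too small for a correlation, and the part of these cells in the differences between dogs was not tested.

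Outside the 48 genes, 27 further genes of the interferon pathway could be measured, out of 77 listed, and 9 rose, 0 fell and 18 did not pass. Among all genes 8.04% rose. The ligands IFNB1, IFNG, IFNK and IFNL1 were on the array but below the minimum, with levels of 4.07 to 5.86 in glaucomatous and 4.13 to 5.79 in healthy retinas and overlapping groups in all 4. With no minimum set their differences were -0.11 to 0.12 (adjusted p = 0.41 to 0.96). The other interferon genes listed were not analysed here.

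Of 6 measured receptor and kinase genes 2 rose. IFNAR1, a chain of the type I receptor, ranged from 7.14 to 7.65 in glaucomatous and 7.30 to 7.61 in healthy retinas and differed by -0.10 ± 0.12 (SE, adjusted p = 0.60). IFNGR1, the ligand-binding chain of the gamma receptor, differed by -0.11 ± 0.20 (SE, adjusted p = 0.73), and IL10RB, which serves interferon lambda and IL-10, by 0.22 ± 0.16 (SE, adjusted p = 0.36). IFNGR2, the signalling chain of the gamma receptor, had 11.41, 10.34, 10.45, 10.79 and 10.85 in glaucomatous retinas and 10.25, 10.29, 9.54, 10.16 and 9.96 in healthy retinas. Its groups came close but did not overlap, and it rose by 0.73 ± 0.21 (SE, adjusted p = 0.038). JAK2, the kinase bound to that chain, rose by 0.45 ± 0.13 (SE, adjusted p = 0.042), and JAK1 differed by 0.24 ± 0.09 (SE, adjusted p = 0.078) with every glaucomatous retina above every Beagle.

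Of the other signal transducers STAT3, which answers mainly to cytokines of the IL-6 family, rose by 1.27 ± 0.14 (SE, adjusted p = 0.00020). IRF3, the factor that starts interferon transcription, differed by 0.47 ± 0.17 (SE, adjusted p = 0.078) and its kinase TBK1 by 0.05 ± 0.13 (SE, adjusted p = 0.83). Among sensors and adaptors TLR3, the endosomal receptor for double-stranded RNA, rose by 1.44 ± 0.39 (SE, adjusted p = 0.029) with overlapping groups. STING1, the adaptor of cytosolic DNA sensing, rose by 0.92 ± 0.17 (SE, adjusted p = 0.0043). No Beagle exceeded the minimum for STING1, which entered the test only through 4 glaucomatous retinas. TLR9 differed by 0.06 ± 0.11 (SE, adjusted p = 0.74) and the adaptor MYD88 by 0.43 ± 0.15 (SE, adjusted p = 0.067).

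Of the negative regulators, PTPN6, a phosphatase of blood and microglial cells, rose by 0.87 ± 0.17 (SE, adjusted p = 0.0060). No Beagle exceeded the minimum for PTPN6 either, and it entered the test only through 4 glaucomatous retinas. PIAS1 and PTPN2, which restrain STAT proteins, differed by -0.40 ± 0.17 (SE, adjusted p = 0.13) and 0.31 ± 0.14 (SE, adjusted p = 0.14). Among 11 further induced genes 3 rose. These were TNFSF10, the death ligand TRAIL, by 2.29 ± 0.32 (SE, adjusted p = 0.00082), IFI30, a lysosomal reductase of antigen processing, by 1.5 ± 0.29 (SE, adjusted p = 0.0055), and PLSCR1, a membrane scramblase with antiviral activity, by 0.47 ± 0.13 (SE, adjusted p = 0.028). TNFSF10 ranged from 10.11 to 11.85 in glaucomatous and from 8.03 to 9.23 in healthy retinas. The GTPase GBP1, a marker of interferon gamma, was above the Beagles in all 5 glaucomatous retinas. Its levels were 7.10, 5.44, 5.91, 6.44 and 8.72, against 5.09 to 5.28 in the Beagles. It entered the test only through 2 glaucomatous retinas, and its difference of 1.56 ± 0.49 (SE, adjusted p = 0.053) did not pass. The peptidase LAP3 differed by 0.69 ± 0.33 (SE, adjusted p = 0.17). With no minimum set, the helicase gene DDX60 rose by 1.26 (adjusted p = 0.0050) and the antiviral ligase gene TRIM22 by 1.36 (adjusted p = 0.027), at levels of 4.83 to 6.99 in glaucomatous and 4.42 to 4.77 in healthy retinas over both.

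Another test and another covariate lowered the number of calls. The exact Wilcoxon rank sum test, which the methods of the study also name, put 25 of the 29 genes, beside 12.5% of all 7900, higher at an unadjusted p under 0.05. After Benjamini-Hochberg adjustment it put 0 higher, and the smallest adjusted p over all genes was 0.0534. With 5 dogs in each group every fully separated probe set shares the smallest p this test can give. The 0 therefore says nothing about these genes in particular. For 2 pairs of control probe sets the signal at the 3' end over that at the 5' end, which rises as RNA degrades, stood on the log2 scale at 0.94 ± 0.14 in glaucomatous and 1.19 ± 0.22 in healthy retinas (SD, n = 5 each), and with it as a covariate 12 genes rose, beside 2.47% of all genes, and the median difference was 0.94. Over 4 control pairs the ratio was 1.73 ± 0.22 in glaucomatous and 1.74 ± 0.30 in healthy retinas, and 24 genes rose with that covariate, beside 7.70% of all genes. The part of RNA quality in the calls was not tested beyond these fits.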

How the data were processed

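Retinal RNA of 10 dogs was hybridised to 1-colour canine oligonucleotide arrays. The authors normalised the raw signals by RMA and deposited linear intensity values, 1 per probe set and array; the RMA software is not given in the sources used here. Their log2 was taken. Intensity after RMA is background-corrected and quantile-normalised, so small differences at low signal are compressed, and levels of different probe sets are not comparable. The number of arrays limits the precision, and 1 array a dog leaves technical and animal spread together.

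The 111 array control probe sets were left out, leaving 42924. Of these 29254 had 1 gene symbol in the platform annotation of the array, 439 had several and 13231 had none. Probe sets with log2 above 7 in at least 2 dogs were kept, as in the methods of the study. limma 3.58.1 in R 4.3.3 (lmFit, eBayes) compared glaucoma with healthy, with Benjamini-Hochberg adjustment over all kept probe sets and a call at adjusted p under 0.05. The fit was tested on data simulated with the healthy means and SDs in both groups, so the larger spread among glaucomatous retinas was not simulated. Groups came from the sample labels. The study's methods name the Wilcoxon test and SAM with a 2-fold minimum. The Wilcoxon test was run as an alternative and SAM was not run.

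The 48 genes, their role groups, the pathway lists and the marker lists were chosen with earlier results of these data known. Values in every dog were given for up to 3 genes a role group with the smallest adjusted p and up to 2 with the largest difference among those that did not pass. Of each pathway list, up to 4 genes with the smallest adjusted p, up to 2 with the largest difference that did not pass and the receptor genes were named. Gene order was read from the RefSeq annotation of the assembly UU_Cfam_GSD_1.0, without coordinates. Alternatives were another normalisation, other filters, covariates, weights, choices of probe set, the replicate number as a block, and leaving out dogs or breeds.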

Additional observations from a re-analysis of the deposited data

Results flagged for a closer look

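Among the 58 sets of 5 dogs (29 genes in each of 2 groups), 4 held a dog whose distance to its nearest neighbour was large against the range of its group (Dixon's test, critical value 0.71). Chance alone marks about 1 in 20 sets.

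RTP4 was at 8.75 in the glaucomatous retina of the 5-year-old Shiba Inu, with the next dog at 7.89. The other 3 sets were of healthy retinas. IRF9 was highest in healthy dog 1 at 9.08, with the next Beagle at 8.75. IFI44 was highest in healthy dog 2 at 8.62, with the next at 8.19. IRF7 was lowest in healthy dog 5 at 6.23, with the next at 6.57.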

How the results depend on the processing

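As given above, 24 genes rose, 14 of them at least 2-fold, with a median difference of 0.998. The exact Wilcoxon test gave 0 and 0 after adjustment, with 25 genes higher at an unadjusted p under 0.05. The 3' to 5' ratio of 2 control pairs as a covariate, chosen after seeing the data, gave 12 and 9, and DTX3L, EPSTI1, HERC5, IFI35, IFI44, IFIH1, IRF7, MX1, MX2, RTP4, UBA7 and UBE2L6 did not pass; with it 2.47% of all genes rose. Leaving out 1 dog at a time gave 22 to 25 and 9 to 19 genes, the 9 without the Dalmatian, and median differences of 0.89 to 1.12. In these fits 5.14% to 9.26% of all genes rose. Age as a covariate gave 20 and 18 (HERC5, IRF7, MX1 and UBE2L6 did not pass), beside 7.10% of all genes that rose. Array weights gave 25 and 11 with IRF2 falling by 0.41. With these weights 11.9% of all genes rose and 1087 of 7900 fell, more than in the main fit in both directions. Leaving out the Shiba Inus gave 22 and 12, beside 7.98% of all genes that rose.

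STAT2 turned to -0.15 with age as a covariate and ran from -0.014 to 0.11 when 1 dog was left out. IFIT5 turned to 0.55 with age and to 0.12 without the Shiba Inus, and ran from -0.15 to 0.21 when 1 dog was left out. The cause was not tested. The other 27 genes kept their direction in every setting that could test them. The replicate number as a block gave 22 and 14 (IFI44 and UBE2L6 did not pass), beside 5.65% of all genes that rose. Same-numbered dogs of both groups correlated at -0.24 to 0.07 in their deviations, none best with its own number, so the numbers pair no animals.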
